A study of Mus musculus with 6 samples.

Results

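Neurosteroids are steroids made or remodelled in the brain, and oxysterols are oxidised forms of cholesterol. Cholesterol reaches the inner mitochondrial membrane, where the side-chain cleavage enzyme turns it into pregnenolone, the precursor of the other steroids. Reductases then turn progesterone into allopregnanolone, which strengthens the response of GABA-A receptors, and in neurons a separate route hydroxylates cholesterol so that it can leave the brain. The genes described here were 10 carriers and enzymes of these routes, taken by gene symbol: Tspo, Star, Cyp11a1, Srd5a1, Akr1c14, Hsd17b10, Cyp7b1, Cyp46a1, Cyp19a1 and Sts. Of these, 9 had a row among the 31838 genes of the table. Sts, the steroid sulphatase gene, was not analysed here.

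Hippocampal polyA RNA came from wild-type C57BL/6 mice, 4 months old, in 2 groups of 3 libraries. One group was given the plasticiser butyl benzyl phthalate (hereafter BBP) at a daily dose of 50 mg/kg, and the other corn oil. The study, by its title, concerns cognitive impairment. Whether the 3 libraries of a group are 3 mice is not stated, so p-values measure only the spread between these libraries.

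Deposited counts summed to between 62477604 and 67270275 per BBP library and to between 62747522 and 68422361 per corn oil library. In all 6 libraries more genes had a count of 4 than any other count between 1 and 9, so 1 fragment was assumed to stand for 4 deposited counts. This is approximate, since counts of 1, 2 and 3 were also common (970, 754 and 620 genes in BBP library 1, beside 1100 at 4). Markers of dentate granule, CA1, and CA2 and CA3 neurons were above 0 in all 6 libraries. BBP library 1 stood apart, with high striatal and isocortical markers and low markers of the dentate gyrus. The 8 striatal markers summed to 113 FPKM (fragments per kilobase of transcript, scaled to depth) in BBP library 1, to 31.8 and 30.0 in BBP libraries 2 and 3, and to between 31.4 and 48.6 in corn oil. The 8 dentate markers summed to 35.0 FPKM in BBP library 1, to 71.7 and 64.8 in BBP libraries 2 and 3, and to between 43.1 and 66.1 in corn oil. Not every marker followed. In BBP library 1 the isocortex marker Fezf2 was lowest of the 6 libraries (11.1 FPKM) and the dentate marker Pdzd2 highest (2.74 FPKM). The dentate markers Stxbp6 (13.1 FPKM) and Trpc6 (2.46 FPKM) lay within the corn oil range there. Corn oil library 3 stood apart in choroid plexus markers, which summed to 84.2, 72.1 and 80.4 FPKM in BBP libraries 1 to 3 and to 102, 142 and 399 in corn oil libraries 1 to 3. Most of each choroid plexus sum was Ttr, at 51.5, 44.5 and 58.5 FPKM in BBP and 81.4, 115 and 366 in corn oil. Folr1, Aqp1, Kcnj13 and Clic6 were also highest in corn oil library 3, while Kl, Otx2 and Enpp2 were not. The part of all these markers in the levels below was not tested.

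The 250 bases upstream of a start site are shown for the highest member, for the member with the largest log2 fold change among those tested, and for the lowest member. They were taken from a set of RefSeq starts (GRCm38.p6, the assembly that mm10 names). The set used here held a start for 6 of the 9 genes. Each is written 5′ to 3′ on the strand of its gene. Capitals mark GGGCGG, the GC box, or TATAAA, the TATA box, on either strand. The Cyp46a1 window is chr12:108334066-108334315, plus strand. The Cyp11a1 window, chr9:57997774-57998023, plus strand, lies before the first of its 2 starts in that set. This start, at 57998024, is upstream of the annotated gene (from 58006411) and beside the start of Gm17322, a predicted gene (from 57998041). The Cyp19a1 window is chr9:54228915-54229164, minus strand, before the middle one of its 3 starts.
Cyp46a1: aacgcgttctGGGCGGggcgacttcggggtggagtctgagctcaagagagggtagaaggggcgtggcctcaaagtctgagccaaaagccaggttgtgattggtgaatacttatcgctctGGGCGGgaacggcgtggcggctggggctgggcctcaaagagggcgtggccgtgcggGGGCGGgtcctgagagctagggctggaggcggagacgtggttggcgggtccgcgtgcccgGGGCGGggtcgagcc
Cyp11a1: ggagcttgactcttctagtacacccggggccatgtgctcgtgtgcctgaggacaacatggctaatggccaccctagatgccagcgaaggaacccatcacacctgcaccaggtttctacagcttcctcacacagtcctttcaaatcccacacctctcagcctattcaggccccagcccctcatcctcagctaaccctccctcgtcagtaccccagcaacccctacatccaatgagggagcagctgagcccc
Cyp19a1: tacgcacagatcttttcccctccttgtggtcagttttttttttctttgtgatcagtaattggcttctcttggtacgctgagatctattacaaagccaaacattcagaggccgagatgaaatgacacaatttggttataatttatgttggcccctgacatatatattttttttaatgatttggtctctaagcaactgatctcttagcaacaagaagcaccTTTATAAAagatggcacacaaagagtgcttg
The Cyp46a1 window was 67.6% G and C, above 87.1% of the 32817 windows of this length, with 23 CpG pairs and 4 GC boxes. A GC box was found in 32.7% of all windows. No match to either motif was found in the Cyp11a1 window, which was 57.6% G and C with 4 CpG pairs. The Cyp19a1 window was 37.2% G and C with 3 CpG pairs, and its capitals are 2 overlapping matches to the TATA box, 1 on each strand, a motif found in 12.4% of all windows. The other Cyp19a1 windows were not alike. That before the start at 54268164 was 54.4% G and C with 0 TATA boxes, and that before the start at 54193743 was 36.8% with 2. Among the windows not printed, that of Srd5a1 had 20 CpG pairs and 3 GC boxes, that of Hsd17b10 12 and 1, and that of Akr1c14 1 and 0. AGGTCA, the nuclear receptor half-site, was searched on both strands as well. It was found before the other start of Cyp11a1 and before 1 start of Cyp19a1, and in 14.0% of all windows.

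The levels of the 9 genes spanned a wide range in this tissue (FPKM is scaled by length, so genes can be compared). Cyp46a1, the neuronal cholesterol hydroxylase, led with a mean of 48.5 FPKM over the 6 libraries, above 96.1% of the tested genes. Hsd17b10 followed at 18.1 and Cyp7b1 at 7.69 FPKM. Srd5a1, Tspo and Star stood close together at 2.85, 2.58 and 1.98 FPKM. Cyp11a1 was at 0.625, Akr1c14 at 0.337 and Cyp19a1 at 0.0289 FPKM. Srd5a1 exceeded Tspo in 3 of the 6 libraries and Tspo exceeded Star in 5 of 6, with overlapping ranges in both cases. Every other neighbouring pair in this order kept it in 6 of 6 libraries without overlap.

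**Figure D1:**
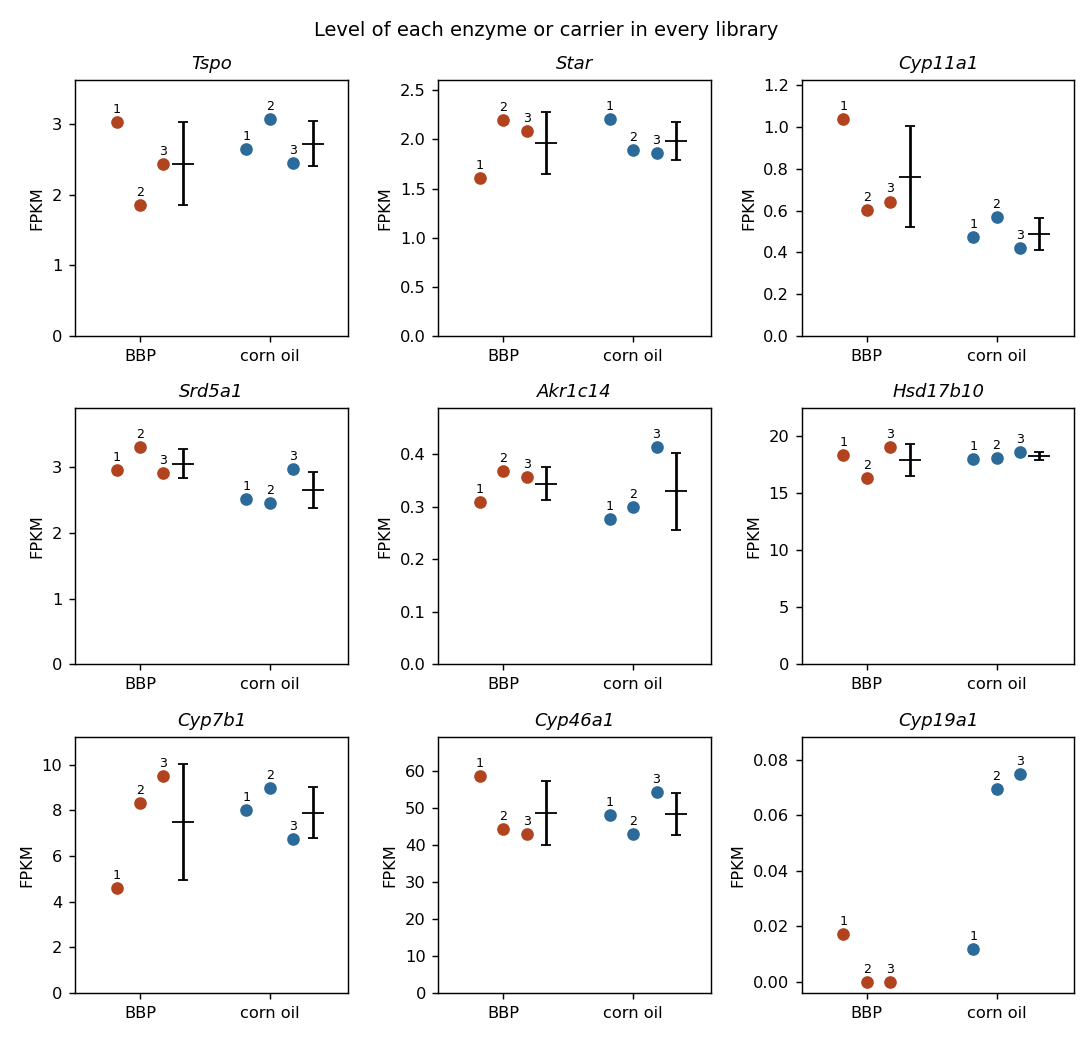
Level of each gene in FPKM (vertical axes start at 0, or just below it for Cyp19a1) in the BBP libraries, left, and the corn oil libraries, right. Points are libraries with their replicate number, and black bars give the mean and SD of 3 libraries (not drawn for Cyp19a1, which was listed at 0 in 2 libraries). The groups overlap for every gene but Cyp11a1, whose 3 BBP values of 0.603 to 1.04 lie above the corn oil values of 0.422 to 0.572.

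No gene of the set passed the test between groups. Of the 9 genes, 8 had enough counts to be tested. With edgeR's quasi-likelihood test, 0 of the 8 had a Benjamini-Hochberg adjusted p under 0.05, as did 0 of all 20428 tested genes (0%). DESeq2 and limma called 0 of the 8 as well. At an unadjusted p under 0.05 there was 1 member, Cyp11a1, against 3.35% of all tested genes in either direction and 1.98% in this one. Its groups were also the only ones among the 8 that did not overlap, against 10.4% of all tested genes, 5.1% with BBP higher and 5.32% with BBP lower. The median log2 fold change (BBP over corn oil) of the 8 was 0.02, beside 0.01 for all tested genes. For 7 of the 8, changes larger than 2-fold either way were outside the 95% interval, against 69.9% of all tested genes. Without BBP library 1, 5 of the 8 were again above 0 and 3 below, with Cyp7b1 now above and Cyp46a1 below. Cyp19a1 passed the filter in that fit. It was the 1 of 9 members at an edgeR unadjusted p under 0.05, on the lower side, beside 7% of all genes tested there.

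Cyp11a1, the side-chain cleavage enzyme that makes pregnenolone, was higher in every BBP library than in any corn oil library. It had 1.04, 0.603 and 0.644 FPKM in BBP libraries 1 to 3, against 0.475, 0.572 and 0.422 in corn oil libraries 1 to 3. The deposited counts were 354, 204 and 231 in BBP and 162, 195 and 155 in corn oil. BBP library 1 was far above the rest, while BBP library 2 lay just above corn oil library 2. The means were 0.761 ± 0.239 FPKM in BBP and 0.490 ± 0.0760 FPKM in corn oil (SD, n = 3 each). The log2 fold change was 0.65 ± 0.25 (SE), or 1.57-fold with a 95% interval of 1.05 to 2.35 (edgeR unadjusted p = 0.0321, adjusted p = 0.953). Leaving out BBP library 1 gave 0.38 (edgeR unadjusted p = 0.122, adjusted p = 0.722). Without BBP library 2, BBP library 3 or corn oil library 2, the value was 0.76, 0.77 and 0.78. In these fits the edgeR unadjusted p was 0.0267, 0.025 and 0.0323, and the adjusted p 0.981, 0.645 and 0.999. Leaving out corn oil library 1 gave 0.63 (edgeR unadjusted p = 0.0786, adjusted p = 1), and leaving out corn oil library 3 gave 0.55 (edgeR unadjusted p = 0.0988, adjusted p = 0.999).

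The Cyp11a1 gene (mm10 chromosome 9, 58006411 to 58027023, plus strand) begins inside Gm17322, a predicted gene on the same strand (57998041 to 58007451), with which it shares 3.02% of its exon bases. The first RefSeq start of Cyp11a1, at 57998024, also lies beside the start of Gm17322, so the division of counts between the 2 genes is uncertain. Gm17322 had 424, 235 and 291 counts in BBP libraries 1 to 3 and 359, 229 and 331 in corn oil libraries 1 to 3. Its groups overlapped, with a log2 fold change of 0.08 ± 0.26 (SE). With the counts of both genes summed, a choice made after seeing the data, the log2 fold change was 0.31 (edgeR unadjusted p = 0.184).

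Neither Tspo nor Star differed between groups beyond the spread of the libraries. Tspo, the translocator protein of the outer mitochondrial membrane and a marker of reactive glia, had 3.02, 1.85 and 2.43 FPKM in BBP libraries 1 to 3, against 2.65, 3.07 and 2.44 in corn oil libraries 1 to 3. The groups overlapped, and BBP library 2 was lowest. Its log2 fold change was -0.15 ± 0.22 (SE), a fold of 0.902 with a 95% interval of 0.636 to 1.28. It was -0.32 without BBP library 1, -0.02 without BBP library 2 and -0.05 without corn oil library 2. The 9 microglial markers summed to 150, 130 and 136 FPKM in BBP libraries 1 to 3 and to 131, 140 and 143 in corn oil, with 7 of 9 above 0 in log2 fold change and a median of 0.06. Tspo (chromosome 15, 83563592 to 83574203, plus strand) shares 5.04% of its exon bases with Mcat on the opposite strand, and without knowledge of the strand setting their reads cannot be told apart there.

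Star, which delivers cholesterol to the inner mitochondrial membrane, had 1.61, 2.2 and 2.09 FPKM in BBP libraries 1 to 3, against 2.21, 1.89 and 1.86 in corn oil libraries 1 to 3. BBP library 1 was lowest, and the other 2 BBP libraries were within the corn oil range. Its log2 fold change was 0.02 ± 0.17 (SE), a fold of 1.01 with a 95% interval of 0.766 to 1.33. Its sign depended on which library was left out, ranging between -0.12 without BBP library 2 and 0.15 without BBP library 1. Star lies on chromosome 8 (25806555 to 25815982, plus strand).

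The reductases of the allopregnanolone branch were present at modest and low levels. Srd5a1, which reduces progesterone to dihydroprogesterone, had 2.95, 3.30 and 2.91 FPKM in BBP libraries 1 to 3, against 2.52, 2.46 and 2.97 in corn oil libraries 1 to 3. Corn oil library 3 lay within the BBP range and the other corn oil libraries below it. The log2 fold change was 0.23 ± 0.15 (SE), 1.17-fold with a 95% interval of 0.927 to 1.48 (edgeR unadjusted p = 0.158, adjusted p = 0.953). With 1 library left out it was 0.13 to 0.32, the lowest without BBP library 2. Srd5a1 (chromosome 13, 69573449 to 69611442, minus strand) shares 16.4% of its exon bases with the predicted gene Gm17108 on the same strand, which had 10 to 39 counts in any library, beside 504 to 673 for Srd5a1.

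Akr1c14, the hydroxysteroid dehydrogenase that makes allopregnanolone from dihydroprogesterone, had 0.308, 0.367 and 0.357 FPKM in BBP libraries 1 to 3, against 0.276, 0.300 and 0.413 in corn oil libraries 1 to 3. The BBP values fell inside the corn oil range. With 63 to 102 deposited counts per library, it was among the less precise members, and its fold of 1.06 had a 95% interval of 0.686 to 1.65. The log2 fold change of 0.09 was -0.02 without corn oil library 1 and 0.28 without corn oil library 3. Within a library, Srd5a1 exceeded Akr1c14 by 9.59, 8.98 and 8.15 times in BBP libraries 1 to 3 and by 9.14, 8.21 and 7.18 times in corn oil libraries 1 to 3. Akr1c14 lies on chromosome 13 as well (4049011 to 4090688, plus strand), in a family of similar genes between which fragments can be divided.

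Hsd17b10, a mitochondrial dehydrogenase that oxidises neurosteroids and takes part in isoleucine breakdown, was the steadiest member. It had 18.3, 16.3 and 19.0 FPKM in BBP libraries 1 to 3, against 18, 18.1 and 18.6 in corn oil libraries 1 to 3. The fold was 0.991, and its 95% interval of 0.861 to 1.14 was the narrowest of the 8. It lies on the X chromosome (152001845 to 152004442, plus strand).

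**Figure D2:**
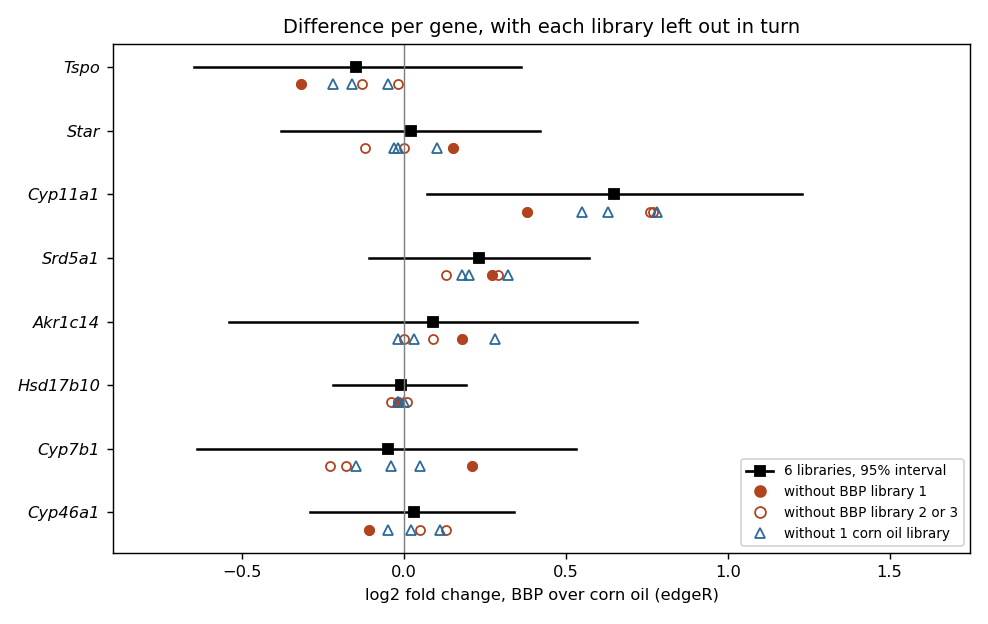
Log2 fold change (horizontal axis, BBP over corn oil, edgeR) of the 8 tested genes. Squares and lines give the value over 6 libraries with its 95% interval, and smaller symbols the value with 1 library left out. Only the interval of Cyp11a1 (0.07 to 1.23) lies wholly above 0, and without BBP library 1 (filled circles) Cyp11a1 is at 0.38 and Cyp7b1 at 0.21.

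The oxysterol enzymes did not pass the test between groups, and Cyp7b1 was far lower in BBP library 1 than in the other libraries. Cyp46a1, whose product carries cholesterol out of the brain, had 58.6, 44.2 and 42.8 FPKM in BBP libraries 1 to 3, against 47.9, 43.0 and 54.3 in corn oil libraries 1 to 3. BBP library 1 was highest, followed by corn oil library 3, and BBP library 3 lowest, so the groups overlapped. The log2 fold change was 0.03 ± 0.14 (SE), a fold of 1.02 with a 95% interval of 0.818 to 1.27, and it was -0.11 without BBP library 1. Cyp46a1 lies on chromosome 12 (108334381 to 108362234, plus strand).

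Cyp7b1, which hydroxylates oxysterols and dehydroepiandrosterone, had 4.61, 8.32 and 9.51 FPKM in BBP libraries 1 to 3, against 7.99, 8.97 and 6.72 in corn oil libraries 1 to 3. BBP library 1 was lowest of all and BBP library 3 highest. Its log2 fold change was -0.05 ± 0.26 (SE), a fold of 0.964 with a 95% interval of 0.642 to 1.45. Without BBP library 1 the log2 fold change was 0.21 (edgeR unadjusted p = 0.178). Cyp7b1 spans chromosome 3, 18071950 to 18243338, on the minus strand.

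The 2 oxysterol genes were set beside the region markers, library by library. In log2 CPM (counts scaled to library size) minus the corn oil mean, Cyp7b1 stood at -0.77, 0.19 and 0.25 in BBP libraries 1 to 3 and at 0.03, 0.20 and -0.23 in corn oil libraries 1 to 3. The median of the 8 dentate granule markers stood at -0.95, 0.48 and 0.16 in BBP and at 0.11, 0.30 and -0.43 in corn oil. Both were lowest in BBP library 1 and next lowest in corn oil library 3. The same order held for the CA1 median (-0.34 and -0.03 in these libraries) and the CA2 and CA3 median (-0.82 and -0.17). Cyp46a1 stood at 0.28, -0.02 and -0.20 in BBP and at -0.01, -0.16 and 0.17 in corn oil, while the striatal marker median stood at 1.52, -0.08 and -0.34 in BBP and at -0.26, -0.08 and 0.39 in corn oil. These were highest in BBP library 1 and next highest in corn oil library 3, as was the isocortex marker median (1.27 and 0.18). The part of these markers in the levels of Cyp7b1 and Cyp46a1 was not tested. In such bulk tissue, fewer cells of a type and less RNA per cell cannot be told apart. Within a library, Cyp46a1 exceeded Cyp7b1 by 12.7, 5.32 and 4.50 times in BBP libraries 1 to 3 and by 6.00, 4.79 and 8.08 times in corn oil libraries 1 to 3, so the ratio was highest in these same libraries.

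**Figure D3:**
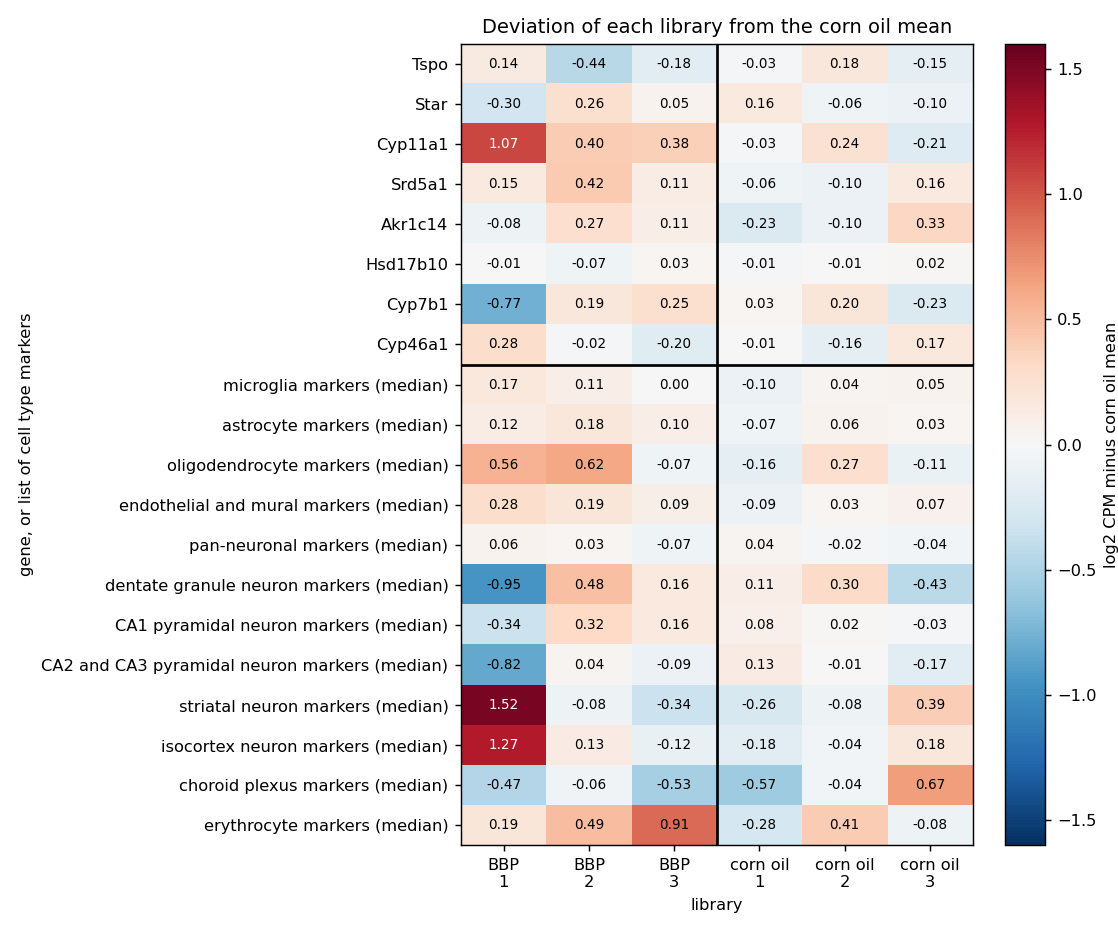
Log2 CPM minus the corn oil mean (colour and printed values) for the 8 tested genes, above the line, and for the median of each list of cell type markers, below it. Columns are the BBP libraries, left, and the corn oil libraries, right. In BBP library 1, Cyp11a1 (1.07) is high and Cyp7b1 (-0.77) low, beside striatal markers at 1.52 and dentate markers at -0.95.

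The high Cyp11a1 value came from the same library. In log2 CPM minus the corn oil mean, Cyp11a1 was at 1.07 in BBP library 1, against 0.40 and 0.38 in BBP libraries 2 and 3 and -0.03, 0.24 and -0.21 in corn oil libraries 1 to 3. The isocortex marker median was at 1.27 in BBP library 1, 0.13 and -0.12 in BBP libraries 2 and 3, and between -0.18 and 0.18 in corn oil. Oligodendrocyte markers were at 0.56, 0.62 and -0.07 in BBP and at -0.16, 0.27 and -0.11 in corn oil, with all 8 above 0 in log2 fold change and summed levels of 530 to 781 FPKM in BBP and 476 to 651 in corn oil. Astrocyte markers were at 0.12, 0.18 and 0.10 in BBP and at -0.07, 0.06 and 0.03 in corn oil, with 8 of 8 above 0 in log2 fold change and sums of 533 to 556 FPKM in BBP and 493 to 527 in corn oil. Endothelial and mural markers were at 0.28, 0.19 and 0.09 in BBP and at -0.09, 0.03 and 0.07 in corn oil, with 8 of 9 above 0 and sums of 61.4 to 74.0 FPKM in BBP and 60.0 to 66.4 in corn oil. The medians of the astrocyte list and of the endothelial and mural list, like Cyp11a1, did not overlap between groups. Those of the oligodendrocyte, isocortex and all other marker lists overlapped. Among all tested genes, 10.4% did not overlap and 52.4% were above 0 in log2 fold change. Every gene of the striatal, isocortex and erythrocyte lists was above 0 as well. The part of these markers in the Cyp11a1 difference was not tested.

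Cyp19a1, the aromatase that turns androgens into oestrogens, was near the limit of detection. It had 6, 0 and 0 deposited counts in BBP libraries 1 to 3, against 4, 23 and 26 in corn oil libraries 1 to 3. At a floor of 3 fragments, or 12 counts, per library, only corn oil libraries 2 and 3 were above the floor. BBP library 1 lay above corn oil library 1, so the groups overlapped. In the fit on all 6 libraries the gene (chromosome 9, 54165937 to 54268110, minus strand) was removed by the filter on low counts. With all 6 libraries and no filter, edgeR gave an unadjusted p of 0.0681 (adjusted p = 0.768) and DESeq2 one of 0.0331 (adjusted p = 1). Cyp19a1 passed the filter in some fits with 1 library left out. Without BBP library 1, where BBP libraries 2 and 3 were at 0, the edgeR unadjusted p was 0.00655 (adjusted p = 0.7). It was 0.116 without BBP library 2, 0.117 without BBP library 3 and 0.0337 without corn oil library 1. No adjusted p passed 0.05 in any of these fits, and no fold is given for a gene with 4 of 6 libraries under the floor.

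The other genes of these pathways, 117 in 6 lists, were read from the same fit. The table held 104 of them, and 90 were tested. In edgeR, 0 of the 90 had an adjusted p under 0.05. At an unadjusted p under 0.05 there were 2 higher and 1 lower, together 3.33%, beside 1.98% higher, 1.37% lower and 3.35% together among all tested genes. The groups did not overlap for 7.78% of the 90, beside 10.4%. Their median log2 fold change was 0.03, beside 0.01. Without BBP library 1, 3 were higher and 1 lower at an unadjusted p under 0.05, together 4.44%, beside 7% of all genes tested in that fit.

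**Figure D4:**
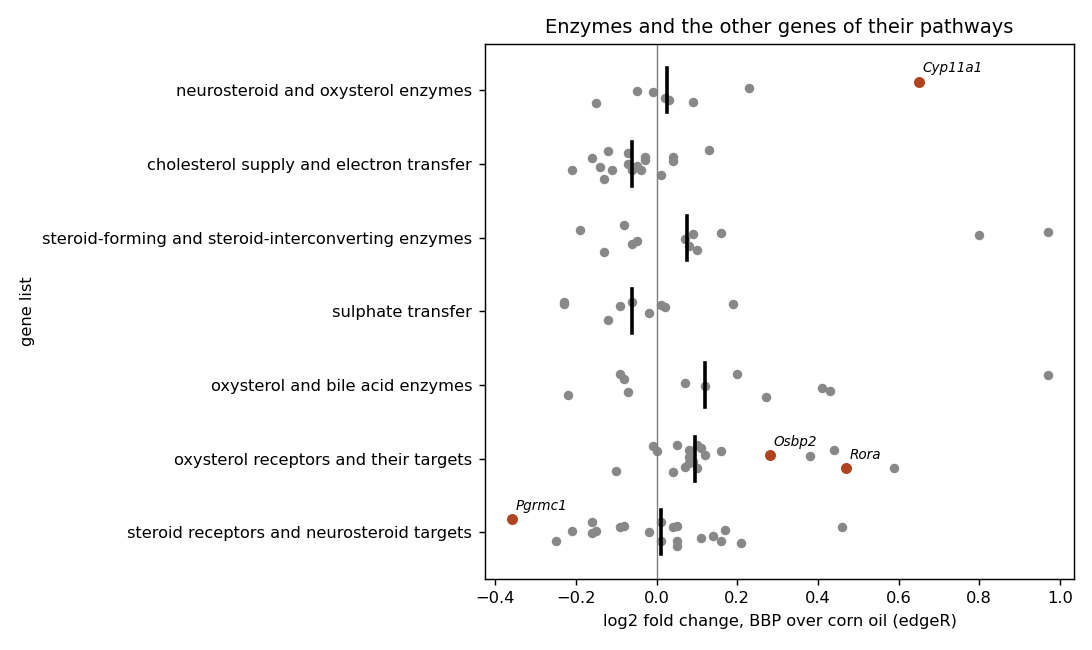
Log2 fold change (horizontal axis, BBP over corn oil, edgeR) of each tested gene by list. Points are genes, black bars list medians, and coloured, named points are genes at an unadjusted p under 0.05. The medians lie between -0.06 and 0.12, and the 4 named genes are Cyp11a1, Osbp2, Rora and Pgrmc1.

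Of 17 tested genes that supply cholesterol and electrons to the mitochondrial enzymes, 0 had an unadjusted p under 0.05 in edgeR, beside 3.35% of all tested genes. Their log2 fold changes were above 0 in 4 and below 0 in 13 (5 and 12 without BBP library 1), beside 52.4% of all tested genes above 0, with a median of -0.06. Vdac1, the outer membrane channel, had 159, 132 and 161 FPKM in BBP libraries 1 to 3 and 170, 163 and 166 in corn oil. Lonp1, the mitochondrial protease that degrades Star protein, had 16.3, 12.7 and 16.6 in BBP and 17.0, 17.1 and 17.5 in corn oil. In both the groups did not overlap, as in 10.4% of all tested genes. Their log2 fold changes were -0.12 ± 0.08 and -0.16 ± 0.09 (SE), with BBP library 2 lowest. Without that library they were -0.07 for Vdac1 and -0.08 for Lonp1. Dbi, the endogenous ligand of Tspo, overlapped between groups, with 61.6, 60.9 and 65.7 FPKM in BBP and 61.5, 67.6 and 69.5 in corn oil.

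Among the other steroid-forming and interconverting enzymes, 12 of the 23 in the table were tested, 7 above 0 and 5 below. Hsd17b12 and Cbr1, a carbonyl reductase, were highest, with log2 fold changes of -0.08 ± 0.10 and -0.06 ± 0.09 (SE), which were -0.17 and -0.10 without BBP library 1. That of Hsd17b12 was -0.01 without BBP library 3, and that of Cbr1 was -0.01 without corn oil library 3. Hsd3b3 and Hsd17b2 had the smallest p of the list (0.156 and 0.224, unadjusted) at levels of at most 0.124 FPKM in any library. Cyp17a1, which makes dehydroepiandrosterone from pregnenolone, was listed at 0 in all 3 BBP libraries and in corn oil library 3, and at 0.0148 and 0.0193 FPKM in corn oil libraries 1 and 2.

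In the sulphate transfer list, 3 of 9 were above 0 and 6 below, with a median of -0.06. Sult4a1, a brain sulphotransferase, had 162, 107 and 143 FPKM in BBP libraries 1 to 3 and 150, 147 and 155 in corn oil. Its log2 fold change of -0.12 was -0.24 without BBP library 1 and 0.01 without BBP library 2. Sumf2, a paralogue of the sulphatase-modifying enzyme, had 3.80, 3.45 and 3.95 FPKM in BBP and 4.52, 4.52 and 4.27 in corn oil, without overlap (log2 fold change -0.23 ± 0.11 SE, edgeR unadjusted p = 0.0741). Slc35b3, a carrier of the sulphate donor, had 2.88, 2.34 and 2.85 FPKM in BBP and 2.23, 2.42 and 2.49 in corn oil. Its groups overlapped in FPKM but not in CPM, and the log2 fold change was 0.19 ± 0.11 (SE). Papss1, which makes that donor, had -0.06 ± 0.08.

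Of 11 tested oxysterol and bile acid enzymes 7 were above 0 and 4 below, with a median of 0.12. That median was 0 without BBP library 2, 0.05 without BBP library 3, 0.03 without corn oil library 1 and 0.02 with a replicate block, and 0 to 0.02 in limma. Cyp39a1, an oxysterol hydroxylase, had 1.12 FPKM in BBP library 1, against 0.355 and 0.264 in BBP libraries 2 and 3 and 0.280 to 0.310 in corn oil. Its log2 fold change of 0.97 ± 0.51 (SE) was 0.11 without BBP library 1. Amacr, Scp2 and Lcat, which act in bile acid synthesis, sterol transfer and cholesterol esterification, had log2 fold changes of -0.22, -0.08 and 0.07. Without BBP library 2 they were -0.11, 0.01 and -0.27, and without BBP library 1 those of Scp2 and Lcat were -0.16 and 0.23.

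Oxysterol receptors and their targets had 18 of 20 above 0 and a median of 0.09, beside 52.4% of all tested genes above 0. Without BBP library 1 it was 15 of 20, beside 51.1%. Osbp2, an oxysterol-binding protein, had 11.7, 11.5 and 11.5 FPKM in BBP libraries 1 to 3 and 10.3, 10.2 and 8.54 in corn oil. Rora, a nuclear receptor that binds sterols, had 3.45, 2.05 and 2.36 in BBP and 1.88, 1.88 and 1.97 in corn oil. Neither overlapped between groups, and the log2 fold changes were 0.28 ± 0.10 and 0.47 ± 0.17 (SE, edgeR unadjusted p = 0.0204 and 0.0211, adjusted p = 0.953 for both). Without BBP library 1 they were 0.29 and 0.24. Osbpl1a, another oxysterol-binding protein gene, stood at 34.8 FPKM in BBP library 1, against 15.0 and 17.6 in BBP libraries 2 and 3 and 16.1 to 18.2 in corn oil, and its log2 fold change of 0.38 was -0.06 without that library. Insig1, which holds back sterol synthesis, had 0.08 ± 0.11 (SE), and 0 without BBP library 1.

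Steroid receptors and neurosteroid targets were split, with 12 of 21 above 0 (10 of 21 without BBP library 1) and a median of 0.01. Pgrmc1, a membrane haem protein associated with progesterone binding and with cytochromes P450, had 121, 103 and 149 FPKM in BBP libraries 1 to 3, against 155, 152 and 177 in corn oil libraries 1 to 3. The groups did not overlap, BBP library 3 coming closest to corn oil. The log2 fold change was -0.36 ± 0.12 (SE, edgeR unadjusted p = 0.0174, adjusted p = 0.953), and it ranged between -0.49 and -0.28 with 1 library left out. Gabrd, the delta subunit of GABA-A receptors that respond to neurosteroids, stood at 20.5 FPKM in BBP library 1, against 8.02 and 8.11 in BBP libraries 2 and 3 and 7.92 to 10.5 in corn oil, and its log2 fold change of 0.46 was -0.11 without that library. Map2, a microtubule protein that binds pregnenolone, had 0.01 ± 0.09 (SE).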

How the data were processed

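Polyadenylated RNA of 6 hippocampal libraries was sequenced in pairs from strand-marking libraries with molecular identifiers, per the labels' protocols. Per the submitters' processing notes, the build was mm10 and the tools included StringTie 2.1.6, HISAT2 2.2.1, cutadapt 1.9, edgeR, UMI-tools and DESeq2, whose roles are not listed. Per the file headers, the authors deposited estimated counts and FPKM per gene and library. The deposited counts are whole numbers. The strand setting used in counting is not given in the sources used here. All 9 genes had the same coordinates in GENCODE M21, which gave the exons.

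The groups were compared by edgeR 4.0.16 (R 4.3.3) with a quasi-likelihood test on treatment alone, after TMM scaling and the filterByExpr filter, and p was adjusted by Benjamini-Hochberg over all 20428 tested genes. Standard errors were derived from the fold change and the F statistic. FPKM was used for levels. The alternatives were DESeq2 1.42.0, limma 3.58.1 on log2(FPKM + 1) or log2(FPKM + 0.1), other scaling or filters, a replicate block, and leaving out each library. The scripts were tested on simulated data. Groups follow the labels, and no library was left out.

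The members and lists were chosen with earlier results of these data known. Named from each pathway list were the 2 genes with the smallest p and the 2 with the highest mean FPKM.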

Additional observations from a re-analysis of the deposited data

How the results depend on the processing

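The count of genes past an adjusted p of 0.05, 0 with edgeR, was 3 with DESeq2 (Vcp-rs and Gm2004 lower, Gm2274 higher) and 0 to 3 with 1 library left out: Scgb1a1, Commd1b and Gm45062 without BBP library 1, and Zbtb12 without corn oil library 2. All were chosen after their values were seen, and none is a member. Genes at an unadjusted p under 0.05 numbered 685 with edgeR, 1068 in limma without a filter, and 1475, 1530 and 393 without BBP library 1, BBP library 3 and corn oil library 1. Of 113 values of the 8 tested members under alternatives, 0 passed an adjusted p of 0.05. Star (0.02) was -0.01 in limma on log2(FPKM + 1), with or without the filter, -0.02 in limma on log2(FPKM + 0.1), and -0.12 to 0.15 with 1 library left out. With 1 library left out, Akr1c14 (0.09) was -0.02 to 0.28, Hsd17b10 (-0.01) -0.04 to 0.01, Cyp7b1 (-0.05) -0.23 to 0.21 and Cyp46a1 (0.03) -0.11 to 0.13. Tspo, Cyp11a1 and Srd5a1 kept their sign throughout, with Tspo (-0.15) at -0.32 to -0.02 with 1 library left out. Cyp11a1 (0.65) was 0.65 in DESeq2 as well (DESeq2 unadjusted p = 0.0222). In limma on log2(FPKM + 1) it was 0.23, with and without the filter (limma unadjusted p = 0.0717 and 0.0892, adjusted p = 0.969 and 0.897). It was 0.52 in limma on log2(FPKM + 0.1) (unadjusted p = 0.0709, adjusted p = 0.972). These are scales that understate changes of low genes. The median of the steroid-forming enzymes (0.07) ranged between -0.06 and 0.13. The cause of these shifts was not tested. With a replicate block, 0 genes passed and Cyp11a1 was 0.63 (unadjusted p = 0.0456). Libraries of equal number deviated from their group means with correlations of -0.0771, 0.0756 and -0.102 over genes for numbers 1, 2 and 3. Number 2 was the only one whose libraries correlated best with each other. With 3 libraries per group, these values cannot settle whether the numbers pair the libraries, and the labels state no pairing. Values of Cyp19a1 and Akr1c14 are limited by counts of 0 to 26 and 63 to 102 per library.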
